A study of Mus musculus with 6 samples.

Results

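The Rosa26 locus of the mouse is a widely used site for inserting transgenes, and 4 entries of the gene table bear on it here: Gt(ROSA)26Sor, Thumpd3, Setd5 and tdTomato. They were taken by name from the 31054 features counted in each library, and each name matched 1 feature. The 4 were selected on their raw UMIs per library and cell type in p16-DTR against control, so the differences between those groups for these 4 entries are given below as descriptions, without tests. Tests are given for other genes only.

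Lung cells of 6 male C57BL/6 mice of 21 months were profiled by droplet single-cell RNA sequencing, 1 library per mouse. The 3 p16-DTR libraries came from mice of the genotype p16-CreERT2/R26-LSL-DTR. The 3 control libraries came from p16-CreERT2 mice, which carry the Cre driver without the R26-LSL-DTR allele. All 6 mice had received tamoxifen over 5 days and, after 2 weeks, diphtheria toxin over 5 days, and lungs were taken after 2 further weeks. Each library mixed 20000 CD45-negative with 9000 CD45-positive sorted cells. In this model a Cre recombinase that tamoxifen activates is made where the Cdkn2a (p16) promoter is active, so the receptor for the toxin is expected only in cells in which that driver was active during tamoxifen. The labels do not say whether the R26-LSL-DTR allele was on 1 or both chromosomes, and they name no tdTomato allele.

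Gt(ROSA)26Sor is a long non-coding RNA transcribed from the locus in nearly all tissues. Cassettes targeted to Rosa26 are usually placed in the first intron of this gene, where the promoter of the locus can drive them. An LSL cassette holds a transcription stop between loxP sites, which Cre removes. Thumpd3, a tRNA guanosine methyltransferase that acts with Trmt112, lies beside it on the opposite strand. Setd5, a chromatin regulator with a SET domain that is found with the NCoR and HDAC3 corepressors and with the PAF1 complex, starts on the other side and runs away from it. tdTomato is a red fluorescent protein used as a reporter.

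In the GENCODE M21 annotation of GRCm38, Gt(ROSA)26Sor (ENSMUSG00000086429) spans chr6:113067428-113077333 on the minus strand. Thumpd3 (ENSMUSG00000030264) spans chr6:113046225-113068273 on the plus strand, and the 2 genes overlap by 846 bases at their 3′ ends. Setd5 (ENSMUSG00000034269) spans chr6:113077365-113153435 on the plus strand, and 31 bases separate its start from that of Gt(ROSA)26Sor. The tdTomato feature (ENSMUSG00000999992) is an entry added to the reference and has no genome position. Of the 1695 exonic bases of Gt(ROSA)26Sor, 145 lie in exons of Thumpd3, and 2 of its 4 annotated transcripts have an exon there. Whether the counting used strand is not given in the sources used here, so reads from those shared bases could have been counted for either gene or for neither.

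The sequence where a spliced Gt(ROSA)26Sor RNA leaves the first exon is shown because the first intron is the usual insertion site. It is exon 1 of the transcript Gt(ROSA)26Sor-202 (chr6:113077068-113077177, minus strand) joined to the first bases of its exon 2 (chr6:113071416-113071435), with exon 2 in capitals. All 4 annotated transcripts use the same exon 2 start, at 113071435.
Gt(ROSA)26Sor-202 exons 1 and 2: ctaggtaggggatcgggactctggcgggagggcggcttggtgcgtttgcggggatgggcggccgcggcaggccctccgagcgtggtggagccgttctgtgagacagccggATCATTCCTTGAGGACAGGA

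The first exon of Gt(ROSA)26Sor-203 (chr6:113077174-113077333, minus strand) is shown because it faces the start of Setd5. The motif CCAAT, the site named after CCAAT-binding factors, was searched on both strands, and its matches (CCAAT or its complement ATTGG) are in capitals.
Gt(ROSA)26Sor-203 exon 1: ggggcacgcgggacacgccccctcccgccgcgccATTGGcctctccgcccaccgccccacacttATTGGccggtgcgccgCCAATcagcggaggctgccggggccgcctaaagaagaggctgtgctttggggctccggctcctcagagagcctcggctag

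These 160 bases held 3 matches, 2 as ATTGG and 1 as CCAAT. Among 32851 promoter windows of the same length from RefSeq, 25.6% held at least 1 match and 1.35% held at least 3. The windows were cut at a fixed place in each promoter sequence and were not chosen as first exons. The exon held 16 CpG dinucleotides and 71.9% G and C, against medians of 4 and 53.8% over those windows. A match describes the letters only.

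Over all libraries, 94392 cell barcodes were deposited, of which 91156 passed the filters on genes, UMIs (unique molecular identifiers, 1 per captured RNA) and mitochondrial share (45200 p16-DTR and 45956 control cells). Libraries held 254200305 to 344421685 UMIs in 13482 to 17332 barcodes, and pairs of libraries shared 59 to 94 barcodes. Cell types were assigned by marker genes. The markers placed 80840 cells (88.7%) in 31 types, and 19 types had at least 50 cells in every library. Levels below are UMIs of a gene per 1000000 UMIs of the same cells (CPM). The share of assigned cells was 87.4% to 90.2% per library. Control replicate 2 had the fewest barcodes and UMIs, and control replicate 1 held more alveolar fibroblasts (5569 cells) than control replicates 2 and 3 (2625 and 3526). Over all genes the median of the p16-DTR to control ratio was −0.06 on the log2 scale of these levels and −0.01 after TMM scaling.

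Gt(ROSA)26Sor was at a lower level in every p16-DTR library than in every control library. Over all retained cells it was 10.1, 10.8 and 11.4 CPM in p16-DTR replicates 1, 2 and 3. In control replicates 1, 2 and 3 it was 15.3, 14.5 and 15.2. The p16-DTR values sat together below the controls, and no libraries overlapped. The means were 10.8 ± 0.658 and 14.99 ± 0.426 (SD, n = 3 each), a ratio of 0.717 or −0.48 on the log2 scale, 28.3% lower. With 1 library left out in turn the log2 ratio was −0.52 to −0.44. These levels rest on 9478 and 13728 UMIs. Over all genes tested, 22.5% were lower and 8.58% higher in p16-DTR without overlap of libraries. The share of cells with at least 1 Gt(ROSA)26Sor UMI was 17.0% in p16-DTR and 22.9% in control. Thinned to 5000 UMIs per cell, leaving out 5200 p16-DTR and 5325 control cells with fewer, these shares were 5.05% and 7.50%. The presence of the R26-LSL-DTR allele, its recombination and the response to the toxin differ together between the groups and cannot be told apart here.

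The 2 neighbours that flank Gt(ROSA)26Sor did not show that separation. Thumpd3 was 23.5, 24.98 and 24.8 CPM in p16-DTR replicates 1 to 3 and 21.7, 23.4 and 24.4 in control replicates 1 to 3. The groups overlapped, with means of 24.4 ± 0.782 and 23.1 ± 1.37 (log2 ratio 0.08, SD, n = 3 each). Setd5 was 265.8, 290.1 and 271.0 in p16-DTR replicates 1 to 3 and 279.7, 277.6 and 273.3 in control replicates 1 to 3. The control libraries lay inside the p16-DTR range, with means of 275.6 ± 12.8 and 276.9 ± 3.26 (log2 ratio −0.01, which is 0.04 with TMM scaling). tdTomato was 0.314, 0.2502 and 0.312 in p16-DTR replicates 1 to 3 and 0 in all control libraries.

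**Figure D1:**
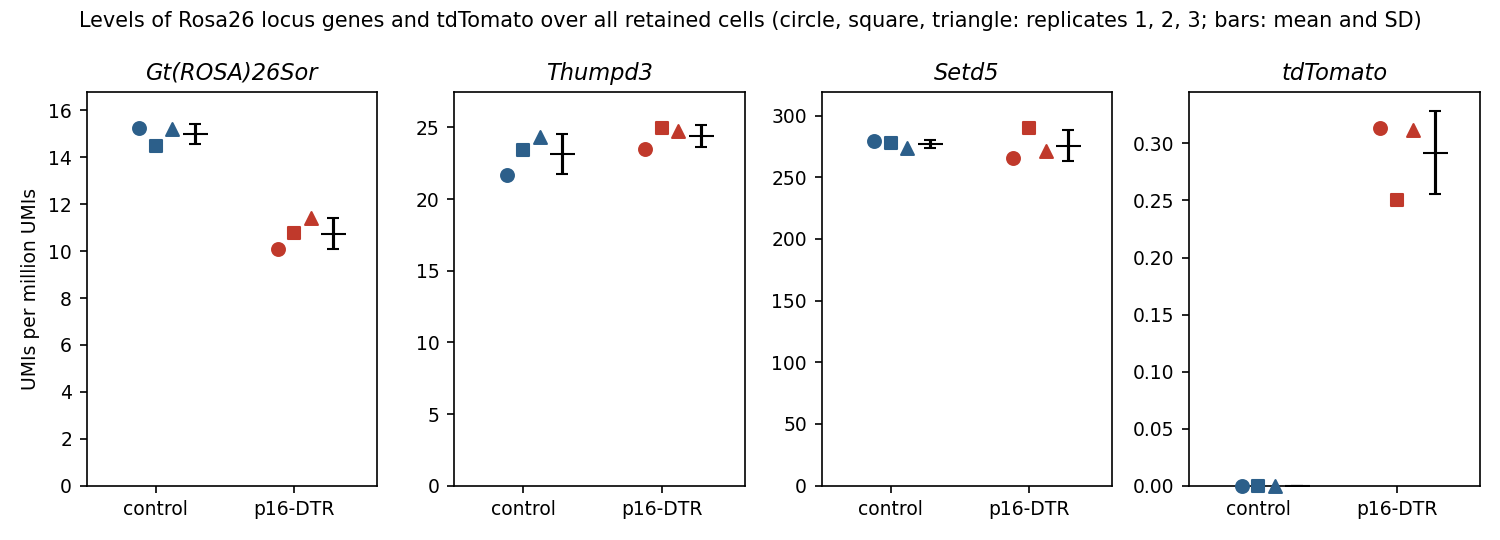
Levels of the 4 entries over all retained cells, in CPM (UMIs per 1000000 UMIs), 1 panel each with its own axis from 0. Points are libraries (circle, square and triangle for replicates 1, 2 and 3) and bars the mean and SD of 3 libraries. Gt(ROSA)26Sor sits at 10.1 to 11.4 in p16-DTR and 14.5 to 15.3 in control, Thumpd3 and Setd5 overlap, and tdTomato is at 0 in control.

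By cell type, Gt(ROSA)26Sor was lower on average in p16-DTR in 19 of 19 types, with no overlap of libraries in 15. Its log2 ratio had a median of −0.57 and ran from −1.31 to −0.14. Over all genes tested in the 19 types together, 11.6% of gene and type pairs were lower and 7.49% higher in p16-DTR without overlap. The 4 types with overlapping libraries were adventitial fibroblasts, peribronchial fibroblasts, arterial endothelium and lymphatic endothelium.

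Pericytes, the contractile cells that wrap capillaries, had the highest control level and, with all 6 libraries, the widest difference. Without p16-DTR replicate 3 the widest difference was in gamma-delta T cells (log2 ratio −1.52). In pericytes the Gt(ROSA)26Sor level was 13.1, 13.9 and 9.98 in p16-DTR replicates 1 to 3 and 33.6, 29.0 and 28.9 in control replicates 1 to 3. The ratio was 0.404 (log2 −1.31), from 41 UMIs in p16-DTR and 192 in control. The p16-DTR mean in pericytes, 12.3, was close to that of general capillary endothelium in the same mice, 12.5. In contrast, aerocytes, the other capillary cell that spans the gas-exchange surface, held 12.7, 14.1 and 14.5 in p16-DTR replicates 1 to 3 and 21.7, 17.3 and 20.8 in control replicates 1 to 3, a log2 ratio of −0.54.

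T cells and natural killer cells lay next in size of difference. In gamma-delta T cells Gt(ROSA)26Sor was 7.33, 5.22 and 10.8 in p16-DTR replicates 1 to 3 and 18.5, 17.5 and 18.2 in control replicates 1 to 3 (log2 ratio −1.21), from 31 and 64 UMIs. CD4 T cells held 9.52, 10.3 and 9.61 in p16-DTR replicates 1 to 3 and 22.4, 17.1 and 17.6 in control replicates 1 to 3, a ratio of 0.515. CD8 T cells had a ratio of 0.527, natural killer cells 0.561 and, after neutrophils in this order, B cells 0.638. In these 5 lymphocyte types no libraries overlapped. Of all genes tested, the share lower in p16-DTR without overlap ran from 5.35% in gamma-delta T cells to 11.2% in B cells.

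Neutrophils and both monocyte types showed the same order of groups. Neutrophils had the lowest Gt(ROSA)26Sor level of the 19 types in both groups, 4.91, 4.37 and 5.07 in p16-DTR replicates 1 to 3 and 8.36, 7.73 and 7.69 in control replicates 1 to 3. The log2 ratio was −0.73 in neutrophils, −0.65 in nonclassical monocytes and −0.56 in classical monocytes, without overlap in these 3 types. Of all genes tested in these types, 15.3%, 7.61% and 13.5% were lower in p16-DTR without overlap. Neutrophils also had the fewest UMIs per cell of the 19 types, with medians of 9856 in p16-DTR and 9694 in control against 17248 and 17979 over all cells.

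The epithelium and most endothelium lay in the middle of the range. Alveolar type 2 cells, which make surfactant, held 7.07, 8.91 and 10.6 in p16-DTR replicates 1 to 3 and 12.997, 13.4 and 13.1 in control replicates 1 to 3 (log2 ratio −0.57). In ciliated cells the p16-DTR libraries spread from 6.52 to 14.5, below control values of 14.97 to 16.2. General capillary endothelium, with 2620 and 2856 UMIs the most deeply counted of the endothelial types, held 12.3, 12.2 and 12.99 in p16-DTR replicates 1 to 3 and 18.0, 16.4 and 16.8 in control replicates 1 to 3 (log2 ratio −0.45). In lymphatic endothelium p16-DTR replicate 3, at 15.2, fell among the control values of 14.7 to 16.2 while the others were at 6.53 and 9.60.

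Fibroblasts showed the smallest differences. Alveolar fibroblasts held 10.5, 12.5 and 12.6 in p16-DTR replicates 1 to 3 and 14.6, 13.1 and 13.7 in control replicates 1 to 3, a log2 ratio of −0.22 without overlap and from 2253 and 3677 UMIs. Of all genes tested in alveolar fibroblasts, 15.7% were lower in p16-DTR without overlap. Adventitial fibroblasts had a log2 ratio of −0.22 and peribronchial fibroblasts of −0.14, both with overlapping libraries. In peribronchial fibroblasts the means were 7.33 ± 0.521 in p16-DTR and 8.08 ± 0.968 in control (SD, n = 3 each). The 3 types with the smallest difference were the 3 fibroblast types, 2 of which had control levels under 10 CPM. Without p16-DTR replicate 3 the log2 ratio of adventitial fibroblasts was −0.46, and without p16-DTR replicate 1 it was −0.09. Without p16-DTR replicate 2 venous endothelium, at −0.24, had a smaller difference than alveolar fibroblasts, at −0.26.

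**Figure D2:**
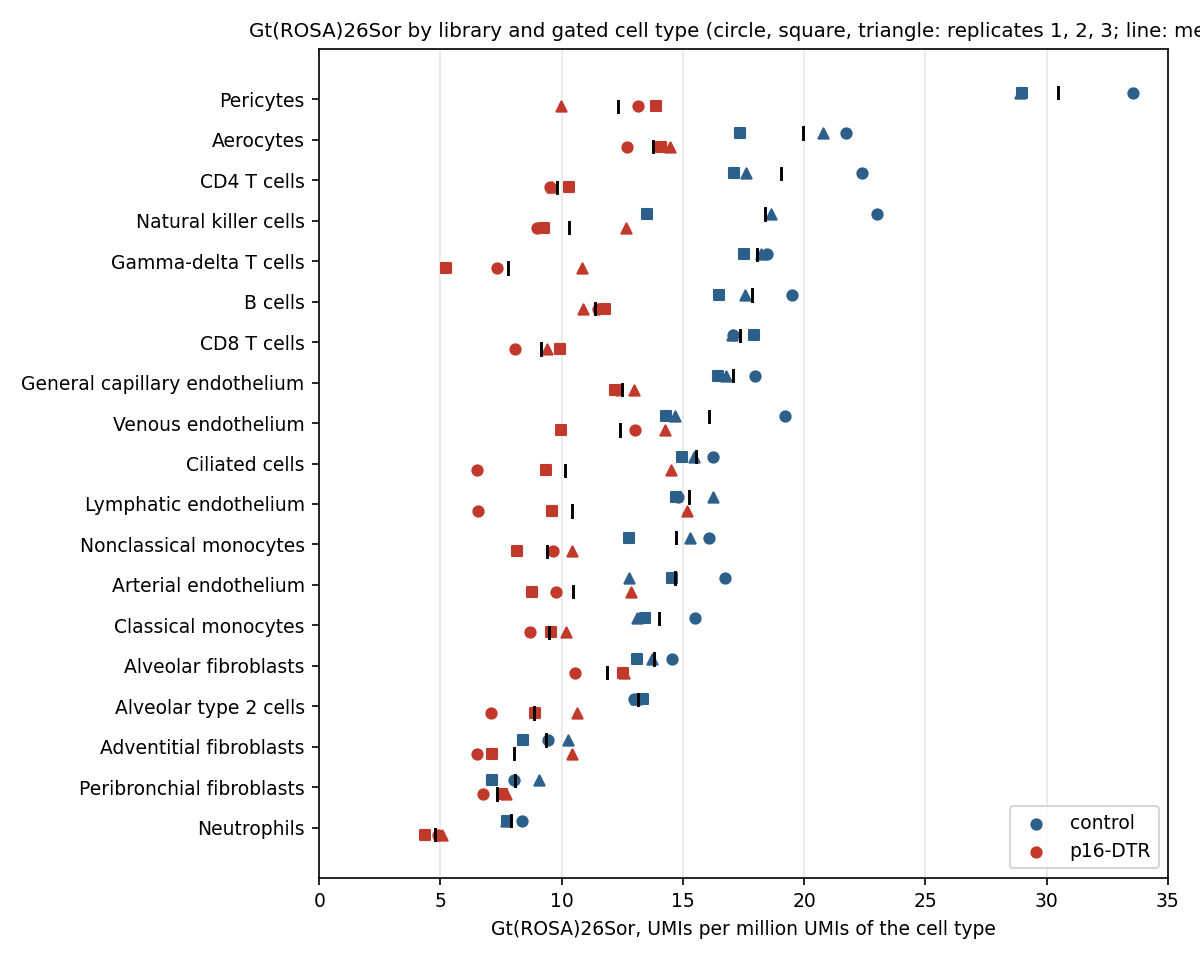
Gt(ROSA)26Sor level (CPM of the cell type, horizontal axis) in 19 marker-gated cell types, ordered by control mean. Each point is a library (circle, square and triangle for replicates 1, 2 and 3), with black lines for the mean of 3 libraries. Control pericytes stand at 28.9 to 33.6, whereas p16-DTR pericytes stand at 9.98 to 13.9 among the other types.

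Pericytes set the upper end of the Gt(ROSA)26Sor range in control. From the lowest to the highest type mean the level differed 3.85-fold in control (7.93 in neutrophils to 30.5 in pericytes) and 2.88-fold in p16-DTR (4.79 in neutrophils to 13.8 in aerocytes). Without pericytes the control range was 2.52-fold. The 12 types with fewer cells held between 9 and 255 Gt(ROSA)26Sor UMIs over both groups. Their log2 ratio was below 0 in 10 and above 0 in 2, which were interstitial macrophages (0.08) and platelets and megakaryocytes (0.77, from 4 and 12 UMIs).

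Thumpd3 and Setd5 had log2 ratios on both sides of 0 by cell type. Thumpd3 had a median log2 ratio of 0.08 over the 19 types, from −0.18 in neutrophils to 0.23 in natural killer cells, and its libraries overlapped in 15 types. It was lower without overlap in gamma-delta T cells and neutrophils and higher without overlap in CD8 T cells and alveolar fibroblasts, 2 of 19 types each way beside the 11.6% and 7.49% of all gene and type pairs. In CD8 T cells Thumpd3 was 36.3, 38.5 and 37.5 in p16-DTR replicates 1 to 3 and 35.2, 36.1 and 35.1 in control replicates 1 to 3 (log2 ratio 0.08), so the lowest p16-DTR library was just above the highest control library. In pericytes, where Gt(ROSA)26Sor differed most with all 6 libraries, Thumpd3 was 24.5 ± 5.88 in p16-DTR and 25.3 ± 0.880 in control (SD, n = 3 each).

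Setd5 had a median log2 ratio of 0.03, with overlapping libraries in 17 types. It was higher without overlap in the other 2 of 19, beside 7.49% of all gene and type pairs. In gamma-delta T cells Setd5 was 282.6, 274.8 and 316.6 in p16-DTR replicates 1 to 3 and 197.2, 255.1 and 225.3 in control replicates 1 to 3 (log2 ratio 0.37). In natural killer cells it was 240.1, 242.8 and 226.8 in p16-DTR replicates 1 to 3 and 176.5, 171.4 and 219.2 in control replicates 1 to 3 (log2 ratio 0.32). In pericytes Setd5 was 278.2 ± 15.4 in p16-DTR and 287.6 ± 8.93 in control (SD, n = 3 each).

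**Figure D3:**
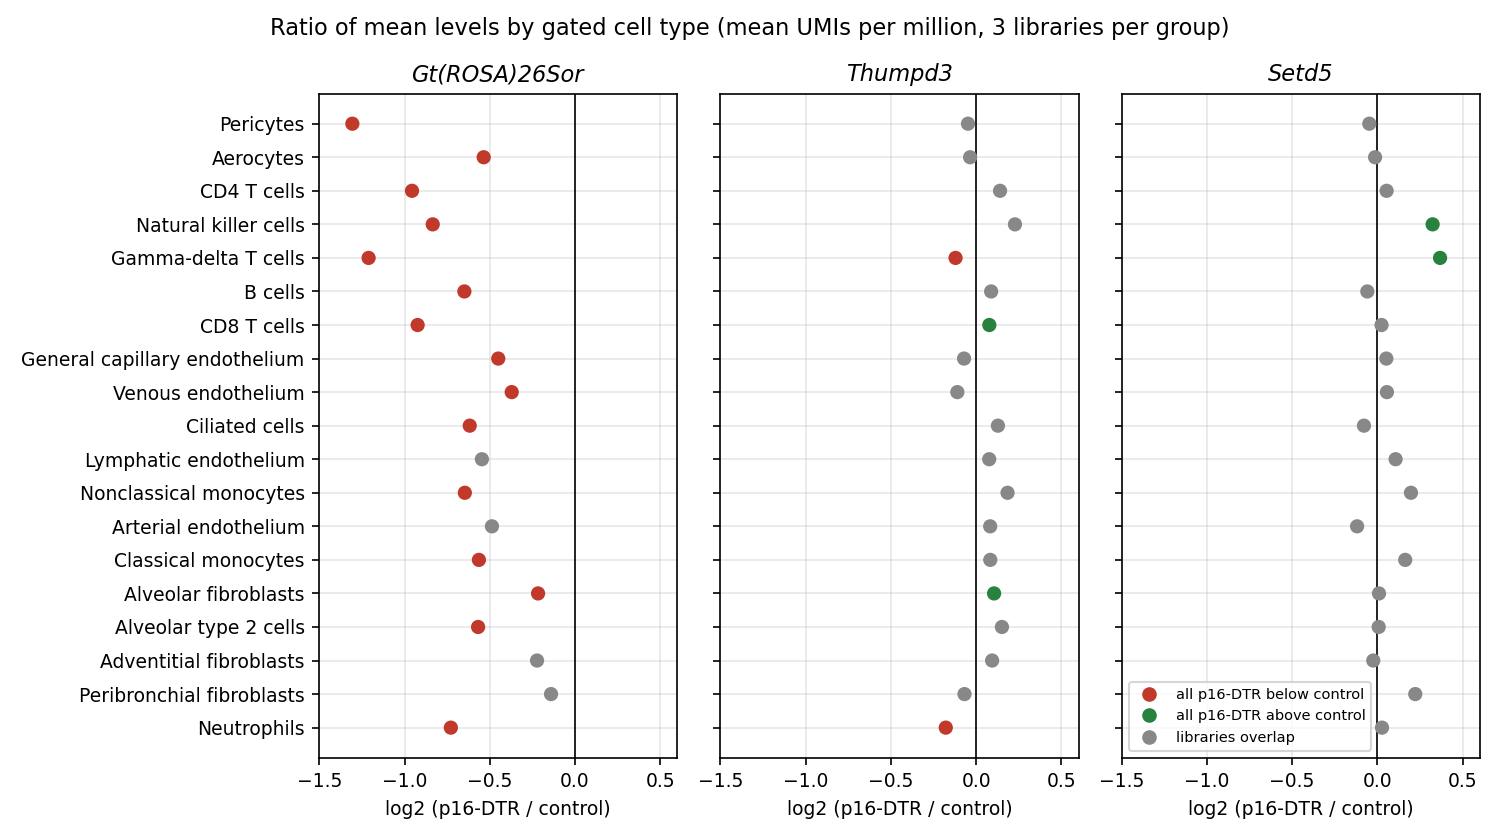
Log2 ratio of the p16-DTR to the control mean of CPM in 19 cell types (rows, in the order of the control level of Gt(ROSA)26Sor) for 3 genes. Red marks types with every p16-DTR library below every control library, green the reverse and grey overlap. Gt(ROSA)26Sor lies left of 0 in 19 rows (15 red), while Thumpd3 and Setd5 lie on both sides.

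tdTomato was counted only in p16-DTR libraries. It had 257 UMIs in 250 of 45200 retained p16-DTR cells (0.553%, 95% Wilson interval 0.489% to 0.626%, counting error only). By library these were 86 of 14760 cells, 73 of 15079 and 91 of 15361, and the intervals of the 3 libraries overlapped. Of these cells, 7 held 2 UMIs and none held more. In control libraries 0 of 45956 cells held a tdTomato UMI, which allows a share of up to 0.00653%, at a median of 17979 UMIs per cell against 17248 in p16-DTR. Thinned to 5000 UMIs per cell, the p16-DTR share was 0.133%.

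Since nearly all of these cells held 1 UMI, and RNA free in the droplets of p16-DTR libraries was not measured here, the shares below are of cells with a UMI and not of cells that express tdTomato. General capillary endothelium had 68 of 12805 cells (0.531%) and alveolar fibroblasts had 66 of 8357 (0.790%). In alveolar fibroblasts p16-DTR replicate 3, at 1.20%, lay above replicates 1 and 2 at 0.651% and 0.608%. Adventitial fibroblasts had the highest share of the 19 types, 12 of 923 cells (1.30%, interval 0.745% to 2.26%), at 1.42%, 1.17% and 1.30% in replicates 1 to 3. They were also deeper, with a median of 32976 UMIs per cell against 17248 over all p16-DTR cells. In CPM, CD4 T cells (mean 0.868) and B cells (0.648) stood above them (0.415), so their rank by share depends on depth. B cells had 27 of 2489 cells (1.08%, interval 0.747% to 1.57%) and CD4 T cells had 12 of 1029 (1.17%). In CD4 T cells replicate 1 held 2.61%, above 0.565% and 0.899% in the other libraries. Alveolar type 2 cells had 4 of 394 (1.02%, interval 0.395% to 2.58%).

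Neutrophils had 1 tdTomato cell of 2319 (0.0431%, interval 0.00761% to 0.244%) at a median of 9856 UMIs per cell, fewer than in the other 18 types. That neutrophil was in 1 of the 3 libraries. Thinned to 5000 UMIs per cell, 18 of 11670 general capillary cells (0.154%) and 14 of 7768 alveolar fibroblasts (0.180%) held a tdTomato UMI. So did 6 of 2351 B cells (0.255%) and 3 of 1001 CD4 T cells (0.300%). It was found in 0 of 1979 neutrophils, 0 of 893 adventitial fibroblasts, 0 of 384 alveolar type 2 cells and 0 of 1276 aerocytes. These numbers are too small for an order. No tdTomato cell was found among 194 pericytes, 342 peribronchial fibroblasts and 322 arterial endothelial cells, which allows shares of up to 1.55%, 0.877% and 0.932%. These limits include the share over all cells, so a lower share in those types was not detectable at this depth.

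**Figure D4:**
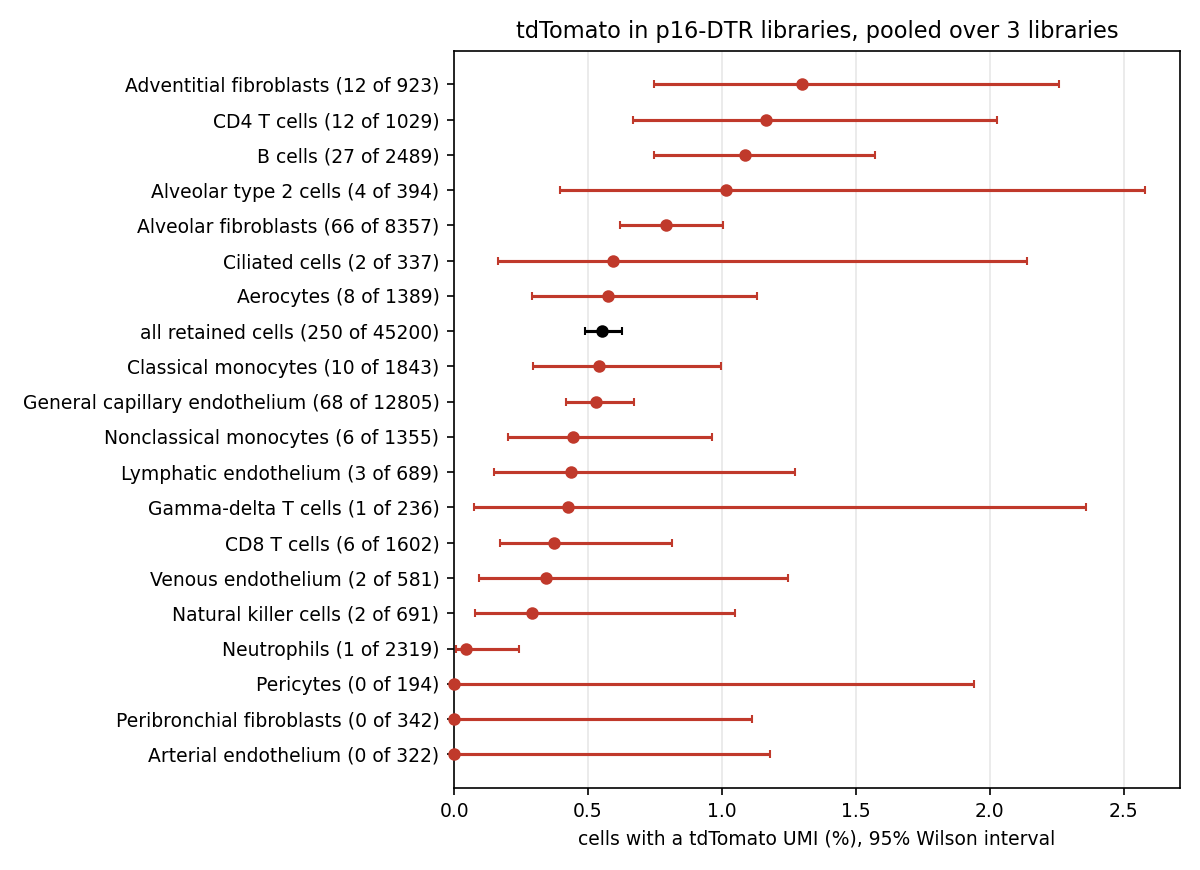
Share of p16-DTR cells with a tdTomato UMI (percent, horizontal axis) in 19 cell types and over all retained cells, pooled over 3 libraries. Bars are 95% Wilson intervals for counting error, and row labels give cells with a UMI of all cells. Neutrophils stand at 1 of 2319 and all retained cells (black) at 250 of 45200.

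Cdkn2a, whose promoter drives the Cre recombinase of this model and which encodes the cell-cycle inhibitor p16, had a UMI in 36 of the 250 cells with tdTomato (14.4%) and in 3820 of the 44950 p16-DTR cells without it (8.50%). By library these shares were 17.4%, 16.4% and 9.89% with tdTomato and 7.78%, 9.18% and 8.51% without. The share with tdTomato was the higher in each of the 3 libraries. Cells with tdTomato were deeper, with a median of 23305 UMIs against 17230, and a share of cells with a UMI rises with depth. On the CPM scale Cdkn2a was 16.5, 8.21 and 5.29 in cells with tdTomato and 7.02, 8.57 and 7.33 in cells without, for replicates 1, 2 and 3. On that scale 1 library was higher and 2 were lower with tdTomato. Gt(ROSA)26Sor was 9.64, 15.9 and 13.8 CPM in cells with tdTomato and 10.1, 10.8 and 11.4 in cells without, so it was higher in replicates 2 and 3 and lower in replicate 1. Of the 250 cells with tdTomato, 65 held a Gt(ROSA)26Sor UMI, so the levels with tdTomato rest on few UMIs. The cell types of the cells with and without tdTomato were not matched.

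Levels of the 3 locus genes were also compared among the cell types of the control libraries. These levels are among the values on which the 4 entries were chosen, so the comparison is a description without a test. For each cell type edgeR gave the difference from the mean of the other 18 types on the log2 scale, from 3 libraries with library as a block. The standard error was derived from that difference and its F statistic. Where UMIs are few it can be smaller than counting error alone. For Gt(ROSA)26Sor this was so in peribronchial fibroblasts, pericytes and neutrophils, among others, with 61, 192 and 188 control UMIs. Such errors overstate the precision. The differences are relative to TMM-scaled libraries, so they can differ from the order of the CPM. Gt(ROSA)26Sor was above the other types in 13 of 19 and below them in 6, Thumpd3 in 10 and 9, and Setd5 in 10 and 9. These counts are of signs only and include differences near 0, such as 0.01 ± 0.07 (SE) for Gt(ROSA)26Sor in venous endothelium.

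Gt(ROSA)26Sor was highest in pericytes, 0.93 ± 0.08 above the other types (log2 difference, SE), with 28.9 to 33.6 CPM. Aerocytes were 0.37 ± 0.06 above, CD4 T cells 0.23 ± 0.07 and B cells 0.16 ± 0.06. Peribronchial fibroblasts were 1.05 ± 0.10 below, adventitial fibroblasts 0.66 ± 0.07 below and neutrophils 0.35 ± 0.08 below. With 1 control library left out, pericytes stood at 0.85 to 0.98 and peribronchial fibroblasts at −1.16 to −0.97, and the sign changed in ciliated cells, classical monocytes and venous endothelium. In the p16-DTR libraries, fitted alone, 13 of 19 types had the same sign as in control. There the value in pericytes was 0.10, in aerocytes 0.51, in CD4 T cells −0.09 and in B cells 0.21. Alveolar fibroblasts stood at 0.34 there against −0.12 in control, and general capillary endothelium at 0.34 against 0.09. Adventitial fibroblasts (−0.32), peribronchial fibroblasts (−0.58) and neutrophils (−0.41) were below the other types there as well.

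In the order of control means of Gt(ROSA)26Sor, neighbouring types were apart at 2 of 18 steps. Pericytes at 30.5 ± 2.66 lay above aerocytes at 19.95 ± 2.31, and alveolar type 2 cells at 13.1 ± 0.198 lay above adventitial fibroblasts at 9.35 ± 0.921 (SD, n = 3 each). The ranges of neighbouring types overlapped from aerocytes down to alveolar type 2 cells, and again from adventitial fibroblasts down to neutrophils at 7.93 ± 0.375.

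Thumpd3 had its highest differences in lymphocyte types. B cells were 0.84 ± 0.07 above the other types (log2 difference, SE), at 40.1, 47.1 and 40.0 CPM in control replicates 1 to 3. CD8 T cells were 0.60 ± 0.08 above, CD4 T cells 0.44 ± 0.08 and gamma-delta T cells 0.31 ± 0.12. Natural killer cells, also lymphocytes, were 0.33 ± 0.10 below. Neutrophils (−0.62), adventitial fibroblasts (−0.52) and alveolar type 2 cells (−0.50) were lowest. With 1 control library left out B cells stood at 0.86 to 0.88 and neutrophils at −0.66 to −0.62. In the p16-DTR libraries, fitted alone, 15 of 19 types had the same sign, with B cells at 0.96, neutrophils at −0.83 and natural killer cells at −0.10.

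Setd5 had its highest differences in endothelial and mesenchymal types. It was above the other types in alveolar fibroblasts (0.68 ± 0.06, log2 difference, SE) and in general capillary (0.63), arterial (0.57), venous (0.49) and lymphatic (0.41) endothelium. Aerocytes (0.26), pericytes (0.25) and peribronchial fibroblasts (0.18) followed. The lowest values were in immune types, classical monocytes (−0.93 ± 0.07), neutrophils (−0.66), nonclassical monocytes (−0.50), natural killer cells (−0.40) and CD8 T cells (−0.40), followed by ciliated cells (−0.29), CD4 T cells (−0.21) and alveolar type 2 cells (−0.18). The sign was the same in all 19 types with each control library left out in turn. In the p16-DTR libraries, fitted alone, it was the same in 17 of 19 types, and gamma-delta T cells (0.21 against −0.12 in control) and adventitial fibroblasts (−0.06 against 0.10) had the other sign. Pericytes stood at 0.02 there and natural killer cells at −0.09.

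**Figure D5:**
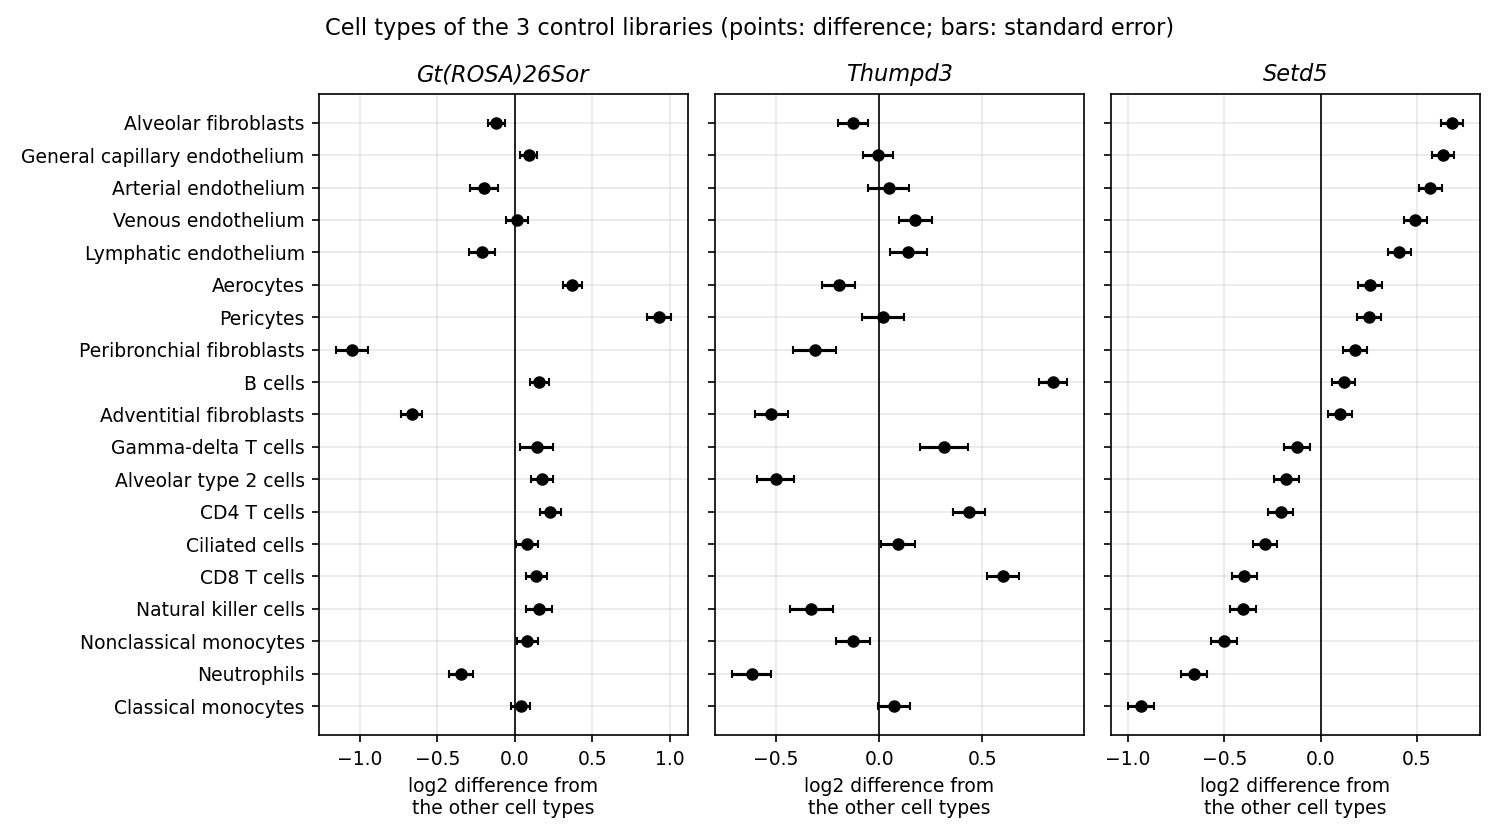
Difference of each cell type from the mean of the other types in the 3 control libraries, on the log2 scale, for Gt(ROSA)26Sor, Thumpd3 and Setd5. Points are the differences fitted by edgeR, with types ordered by Setd5. Bars are standard errors derived from the F statistic, which can be smaller than counting error where UMIs are few. Pericytes at 0.93 lead Gt(ROSA)26Sor, B cells at 0.84 lead Thumpd3 and alveolar fibroblasts at 0.68 lead Setd5.

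The spread of the 3 genes over cell types was small among genes. The SD over 19 types of the mean log2 CPM in controls was 0.37 for Thumpd3, 0.39 for Gt(ROSA)26Sor and 0.45 for Setd5. Of 17605 genes, 9.70%, 11.02% and 15.5% had a lower SD. In a list of 12 genes often used as references, Sdha (0.14) and Tbp (0.20) were among those steadier than all 3, and Actb (0.91), B2m (1.14) and Rplp0 (1.24) varied more. The SD within a type between libraries was 0.12 to 0.15 for the 3 genes.

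Across the 57 pairs of control library and cell type the 3 genes followed one another weakly or not at all. Pearson's r of log2 CPM was 0.33 between Gt(ROSA)26Sor and Thumpd3, −0.02 between Gt(ROSA)26Sor and Setd5 and 0.12 between Thumpd3 and Setd5. Among 6438 genes with at least 10 counts in every pair, the patterns most like Gt(ROSA)26Sor included those of Mink1 (0.74) and Dyrk2 (0.72). Those most like Thumpd3 were Luc7l (0.81), Gtpbp4 (0.77) and Prpf31 (0.76). Setd5 was followed most closely by Zmym4 (0.89), Trim35 (0.89) and Cep68 (0.88). The pairs share libraries, depth and cell types, so these values describe likeness only.

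The other genes around the locus were tested between p16-DTR and control. They were taken by position, and the list was set with earlier results of these data known. Within 1 Mb of Gt(ROSA)26Sor the annotation holds 74 further genes, of which 45 are in the files and 40 were tested over all retained cells. By edgeR 0 of these 40 passed, beside 0 of 21630 genes overall (percent called 0). Unadjusted p values under 0.05 were found for 8 of the 40 and for 5043 of 21630 genes (23.3%), and DESeq2 called 5 of the 40 and 12.7% of all genes. The median log2 difference of the 40 was 0.003 and that of all genes −0.01, from −0.92 for Oxtr, the oxytocin receptor, to 0.47 for Atp2b2, a calcium pump.

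The 5 genes called by DESeq2 alone, named after their values were seen, were Arpc4, Brk1, Jagn1, Cpne9 and Ghrl. Arpc4, a subunit of the Arp2/3 actin-nucleating complex, was 103.1, 99.86 and 100.2 CPM in p16-DTR replicates 1 to 3 and 80.1, 87.3 and 89.9 in control replicates 1 to 3. Its log2 difference was 0.29 ± 0.05 (SE, adjusted p 0.127 by edgeR and 9.63e-05 by DESeq2). Its libraries did not overlap, beside 8.58% of all genes tested that were higher in p16-DTR without overlap. Brk1, a subunit of the WAVE complex that activates Arp2/3, had a log2 difference of 0.23 ± 0.06 (adjusted p 0.136 by edgeR), and Jagn1 had 0.18 ± 0.06 (adjusted p 0.166 by edgeR). Cpne9 (log2 difference −0.72) and Ghrl (−0.62), which encodes ghrelin, had levels under 4 CPM in every library.

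By cell type, 434 tests of 34 neighbouring genes gave 1 call by edgeR, against 0.253% of 236823 gene and type pairs, and 7 by DESeq2, against 2.5%. The call by edgeR was Srgap3, a GTPase-activating protein of the Slit-Robo pathway, in peribronchial fibroblasts. Its level was 24.5, 20.1 and 23.8 in p16-DTR replicates 1 to 3 and 42.9, 37.9 and 40.4 in control replicates 1 to 3, a log2 difference of −0.78 ± 0.16 (SE, adjusted p 0.0494, edgeR). In peribronchial fibroblasts 1.24% of all genes tested were called. The call held in 0 of 6 fits that left out 1 library (adjusted p up to 0.193, without control replicate 1), and its adjusted p ran from 0.00704 to 0.193 over 13 alternatives. Gt(ROSA)26Sor itself had overlapping libraries in those fibroblasts.

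Il17re and Il17rc, neighbouring genes of receptor subunits for interleukin 17 family cytokines, had their widest differences in CD4 T cells. Il17re was 13.4, 2.33 and 2.62 in p16-DTR replicates 1 to 3 and 35.6, 50.0 and 36.5 in control replicates 1 to 3 (log2 difference −2.90 ± 0.59, adjusted p 0.0508, edgeR). Il17rc had a log2 difference of −2.07 ± 0.46 (adjusted p 0.0676, edgeR). Neither passed by edgeR with the filter on low counts, and both passed by DESeq2 (adjusted p 1.49e-05 and 0.0258). Both also passed by edgeR without that filter (adjusted p 0.011 for Il17re and 0.046 for Il17rc) and without cells holding markers of a second lineage (adjusted p 0.0228 for Il17re and 0.00942 for Il17rc). Without p16-DTR replicate 1, which had the highest Il17re level of the 3, the adjusted p of Il17re by edgeR was 0.00337. Il17re passed in no other edgeR fit with 1 library left out, and Il17rc passed in none. Neither passed by edgeR with the other scalings or with a replicate block. In CD4 T cells 2.9% of all genes tested were called by edgeR and 4.97% by DESeq2. Il17re and Il17rc were named after their values were seen. In gamma-delta T cells Il17re was 91.4 ± 20.1 CPM in p16-DTR and 106.5 ± 6.23 in control (SD, n = 3 each, log2 difference −0.24). In CD8 T cells it was 3.57 ± 1.13 in p16-DTR and 1.20 ± 1.51 in control (log2 difference 1.64, adjusted p 0.464, edgeR). Over the 7 types in which Il17re was tested, its median log2 difference was 0.06.

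Genes whose proteins are known to work with SETD5 or THUMPD3, or that are their paralogs, were tested as a list of 13. By edgeR 0 of the 13 were called over all retained cells, beside 0 of 21630 genes. An unadjusted p under 0.05 was found for 1 of the 13, against 23.3% of all genes, and DESeq2 called 1, against 12.7%. By cell type 246 tests of these genes gave 0 calls by edgeR, against 0.253% of all gene and type pairs, and 5 by DESeq2, against 2.5%. With 1 library left out in turn, the count by edgeR over the cell types was 0 to 1. Log2 differences over all retained cells had a median of 0.01, from −0.10 for Leo1, of the PAF1 complex, to 0.17 for Tbl1xr1, of the NCoR complex. Tbl1xr1, the gene called by DESeq2 alone, was 89.2, 94.1 and 97.4 CPM in p16-DTR replicates 1 to 3 and 84.3, 86.9 and 86.7 in control replicates 1 to 3 (adjusted p 0.141 by edgeR and 0.00787 by DESeq2). Hdac3, the deacetylase of the corepressor complex, had a log2 difference of −0.04 and Trmt112, the partner of THUMPD3, had 0.11.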

How the data were processed

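The deposited values are raw UMI counts per gene and barcode, whole numbers, made with Cell Ranger 8.0.1 per the file headers on mm10 per the submitters' processing notes. The annotation release, cell-calling settings and use of strand are not given in the sources used here. A barcode was kept as a cell when it reached 300 genes and 500 UMIs and its mitochondrial share did not pass 15%. Cells were assigned by markers: a marker counted as on with a UMI and at least 0.25 of its 99.9th percentile of log-normalised expression, at least 3 markers of a type had to be on, the type with the highest fraction won, and ties were left unassigned. No doublet caller was run. The 3139 assigned cells (3.88%) that also had at least 2 markers of another lineage were left out in an alternative. Shared barcodes between libraries were at most 94.

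Levels of the 4 entries are summed UMIs per 1000000 UMIs of the same cells (CPM). Other genes were tested on counts summed per library, or per library and cell type, with edgeR 4.0.16 (filterByExpr, TMM factors, quasi-likelihood test without block, Benjamini-Hochberg adjustment over all genes tested, adjusted p threshold 0.05) in R 4.3.3, with DESeq2 1.42.0 as an alternative. The fits were run on simulated data with known changes of 1 and 2 log2 units. Over all retained cells 88% and 100% of these changes were called, with 17 false calls. For pericytes against other types 54% and 80% were called, with 10 false calls. Each simulation used the same dispersion for all genes, so it does not show how the fits perform on these data. Libraries are separate mice per the labels, so n is 3 per group. The depth of 254200305 to 344421685 UMIs per library sets the precision. Intervals for shares are 95% Wilson intervals, and the limit for a count of 0 is 3 counts. Standard errors of log2 differences by edgeR are the absolute difference over the square root of the F statistic.

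A comparison of cell types within control libraries was planned as an edgeR test and is given as differences with standard errors only, since those levels are among the values on which the 4 entries were chosen. The named genes were the 4 entries, neighbouring genes called over all retained cells or in at least 2 cell types, partner genes where called, and for each of the 3 native genes the 3 others with the highest Pearson correlation in control libraries. Other genes named, such as the ends of a range, Srgap3, Il17re, Il17rc, Hdac3, Trmt112 and those called by DESeq2 alone, fall outside this rule and were chosen after their values were seen. Some genes that these rules or lists hold are not reported here. The 4 entries and the gene lists were chosen with earlier results of these data known. Alternatives covered scaling, the filters on cells and low counts, stricter assignment (4 markers), a replicate block and leaving out each library.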

Additional observations from a re-analysis of the deposited data

How the results depend on the processing

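By edgeR, 0 of the 40 neighbouring genes were called over all retained cells under the other scalings, filters and left-out libraries, while DESeq2 called 5. Over the 19 cell types the main count of 1 was 7 with DESeq2, 6 without the filter on low counts and 3 without cells holding markers of a second lineage (of all gene and type pairs 2.5%, 0.865% and 0.603% were called, against 0.253%), and with 1 library left out it was 0 to 1, where the 1 was Il17re in CD4 T cells without p16-DTR replicate 1 and not Srgap3. The partner genes had 0 calls over all retained cells under every edgeR setting run and 1 by DESeq2. The cause of these differences was not tested. The replicate numbers gave no clear pairing of the samples: same-numbered libraries correlated in their deviations at 0.12, −0.02 and 0.13. Of the p16-DTR libraries, replicates 1 and 3 correlated best with the control of their own number and replicate 2 did not. With 3 libraries per group these values cannot decide whether the numbers mark a shared batch. With a replicate block 0 neighbouring genes were called over all cells, 1 over cell types and 0 partner genes.

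The log2 ratio of Gt(ROSA)26Sor over all cells was −0.48, −0.43 with TMM scaling, −0.52 to −0.44 with 1 library left out and −0.66 with each cell type weighted equally, a setting chosen after seeing the data like the removal of second-lineage cells. By cell type, 171 of 171 alternative values for Gt(ROSA)26Sor were below 0. The sign was other than reported in 11 of 171 values for Thumpd3 and 18 of 171 for Setd5. All of these values reuse the libraries on which the entries were chosen, so the counts do not test the difference. In types whose libraries did not overlap, leaving out 1 library could not bring the Gt(ROSA)26Sor ratio above 0. For Gt(ROSA)26Sor 13 values in 6 types, each with 1 library left out, differed over 1.5 times from the reported log2 ratio: without p16-DTR replicates 3 and 1 in turn, adventitial fibroblasts were −0.46 and −0.09 (reported −0.22, and −0.14 without p16-DTR replicate 2), lymphatic endothelium −0.92 and −0.30 (−0.55) and ciliated cells −0.97 and −0.38 (−0.62), peribronchial fibroblasts were −0.22 without control replicate 2, −0.05 without control replicate 3 and −0.08 without p16-DTR replicate 1 (−0.14), venous endothelium was −0.24 without p16-DTR replicate 2 and −0.22 without control replicate 1 (−0.37), and alveolar fibroblasts were −0.14 without p16-DTR replicate 1 (−0.22). The tdTomato share was 0.553% and, at 5000 UMIs per cell, 0.133%, as fewer UMIs per cell are drawn. Its 257 UMIs were 254 under the stricter cell filter and 258 over all barcodes. Depth limits the levels of Gt(ROSA)26Sor in small types and any statement on tdTomato in types with under 500 cells.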
